A study of Arabidopsis thaliana with 12 samples.

Results

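Class III peroxidases are secreted haem enzymes of plants that act on phenolic compounds and hydrogen peroxide in the cell wall. They can cross-link wall polymers and lignin, and they can also release reactive oxygen species. The family is large, many of its genes are expressed in roots, and part of it responds to fragments of microbial or plant cell walls.

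The 4 class III peroxidase genes AT5G39580, AT3G03670, AT1G14550 and AT5G64120 are described here out of 13286 genes measured through probe sets with 1 gene, and out of 55 measured genes of this family. They were picked by locus code as peroxidases with high levels after chitin, so the chitin values chose them and are given as a description with no test. Of the 73 family genes listed, 18 had no such probe set in the probe annotation used and were not analysed here. Genes of other lists are called measured on the same basis. Genes not measured here may still have a probe set on the array, as 8730 probe sets were not listed in that annotation. Each of the 4 genes had 1 probe set.

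The samples were roots of 7-day-old Col-0 seedlings of Arabidopsis thaliana, which had been sown together on a nylon mesh that the roots grow through, so that roots could be taken apart from shoots. Seedlings were given chitin (chito-oligomers, chains of N-acetylglucosamine as in fungal walls), cellobiose (the disaccharide unit of cellulose), oligogalacturonides (OGs, fragments of pectin) or no elicitor (control) for 3 h. Each of the 4 groups had 3 biological replicates with 1 Affymetrix ATH1 array each, 12 arrays in all. The labels state no elicitor dose, and all groups share the Col-0 background.

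Levels are log2 probe set intensities as normalized by the authors, so a difference of 1 is a 2-fold change. Arrays of a group correlated at 0.992 to 0.997 over probe sets. The root hair expansin genes EXPA7 and EXPA18, the 2 measured of 12 listed root markers, averaged between 9.12 and 9.55 in every group. EXPA18 was called lower after chitin (log2 difference -0.38, limma adjusted p = 0.0467), with differences of -0.39 after cellobiose and -0.43 after OGs that were not called, and EXPA7 differed by 0.07 after chitin (adjusted p = 0.816). The 4 measured of 24 listed shoot photosynthesis markers had a summed intensity of 419 to 953 on chitin arrays, 663 to 1141 on cellobiose arrays, 875 to 1233 on OGs arrays and 1673 to 2516 on control arrays, and the lowest reading of any of the 4 on an array was log2 4.73. Bacterial spike-in probe sets had a mean level of 5.82 to 5.93 on chitin arrays, 5.89 to 5.95 on cellobiose arrays, 5.84 to 6.21 on OGs arrays and 6.12 to 6.31 on control arrays. On every array that mean lay under the array's median over tested probe sets (6.30 to 6.41). The summed shoot markers were higher on every control array than on any elicitor array. Spike-in means were higher on every control array than on any chitin or cellobiose array. Their ranges overlapped between chitin and cellobiose arrays, and between OGs and control arrays. The shoot markers and spike-ins thus differed between some groups in which the peroxidases differed, and their part in the peroxidase results was not tested.

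AT5G39580 encodes a peroxidase, called PRX62 in the literature, that takes part in the control of reactive oxygen species during root hair growth. On chitin arrays its level was 10.07, 10.86 and 10.59. It was 8.10, 8.53 and 8.77 on cellobiose arrays, 8.58, 8.74 and 8.37 on OGs arrays, and 6.93, 6.69 and 6.48 on control arrays. The levels thus stood in 3 separate steps, with every chitin array above every cellobiose and OGs array, and every control array below all of them. Cellobiose and OGs arrays overlapped with each other.

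The group means of AT5G39580 were 10.51 ± 0.40 after chitin, 8.47 ± 0.34 after cellobiose, 8.56 ± 0.19 after OGs and 6.70 ± 0.23 in control roots (SD, n = 3 each). Chitin exceeded the control by 3.80 ± 0.20 (log2, SE), a 14.0-fold difference. It exceeded cellobiose by 2.04 and OGs by 1.94 on the log2 scale. In whole roots more RNA per cell cannot be told apart from more cells that express the gene.

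AT3G03670 encodes a secreted peroxidase (PRX28) for which no specific role is stated here. Its level was 9.34, 10.54 and 9.19 on chitin arrays. It was 6.64, 6.64 and 6.18 on cellobiose arrays, 6.79, 6.96 and 6.44 on OGs arrays, and 5.08, 5.17 and 6.40 on control arrays. All chitin arrays lay more than 2 above the highest array of any other group. Among the others, control replicate 3 stood apart from the remaining control arrays and lay within the cellobiose range.

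The means of AT3G03670 were 9.69 ± 0.74 after chitin, 6.49 ± 0.27 after cellobiose, 6.73 ± 0.27 after OGs and 5.55 ± 0.73 in control roots (SD, n = 3 each). The chitin mean was 17.7-fold that of the control (4.14 ± 0.38 SE on the log2 scale), and 26.9-fold without control replicate 3. It exceeded cellobiose by 3.21 and OGs by 2.96 on the log2 scale. In order of level, the neighbours OGs and cellobiose, and cellobiose and control, overlapped.

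AT1G14550 encodes a further member of the family (PRX5), next to the peroxidase gene PER4 in the TAIR10.1 assembly. Its probe set was dim, with all cellobiose and control arrays under log2 5, a level near background. Its level was 6.06, 7.50 and 5.71 on chitin arrays, 4.38, 4.72 and 4.56 on cellobiose arrays, 5.08, 5.03 and 4.96 on OGs arrays, and 4.43, 4.37 and 4.05 on control arrays. Chitin arrays were again above all others, and the OGs arrays, close together, lay above every cellobiose and control array.

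With control arrays raised to log2 5, the chitin mean of AT1G14550 was 2.69-fold higher (fitted difference 2.14 ± 0.29 SE on the log2 scale). The floored value takes in no sampling error. Without chitin replicate 2, the highest array of AT1G14550, the fitted difference of chitin from the control was 1.65. The difference from OGs was then 0.91, against 1.40 with all arrays. Chitin replicate 2 was the highest chitin array for 4 of 4 genes. The share over all probe sets was not counted, so nothing is read from this. Chitin replicate 2 also had the lowest 3′ minus 5′ difference of the actin control probe sets (1.15, against 1.41 and 1.49 on the other chitin arrays). Its summed intensity of the shoot markers was the lowest too (419). The part of either in these levels was not tested.

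AT5G64120 (PRX71) encodes a peroxidase linked to wall stiffening and to responses to wall damage. Its level was 12.92, 13.07 and 13.05 on chitin arrays. It was 12.95, 12.90 and 12.92 on cellobiose arrays, 12.90, 12.99 and 12.77 on OGs arrays, and 12.29, 12.34 and 12.33 on control arrays. All elicitor arrays lay above all control arrays, and the 3 elicitor groups overlapped.

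The chitin mean of AT5G64120 was 13.01 ± 0.08 and the control mean 12.32 ± 0.03 (SD, n = 3 each), a 1.62-fold difference (0.69 ± 0.08 SE on the log2 scale). Chitin differed from cellobiose by 0.09 ± 0.08 and from OGs by 0.13 ± 0.08 (log2, SE), and these arrays overlapped. For the other 3 genes chitin stood above cellobiose and OGs without overlap.

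**Figure D1:**
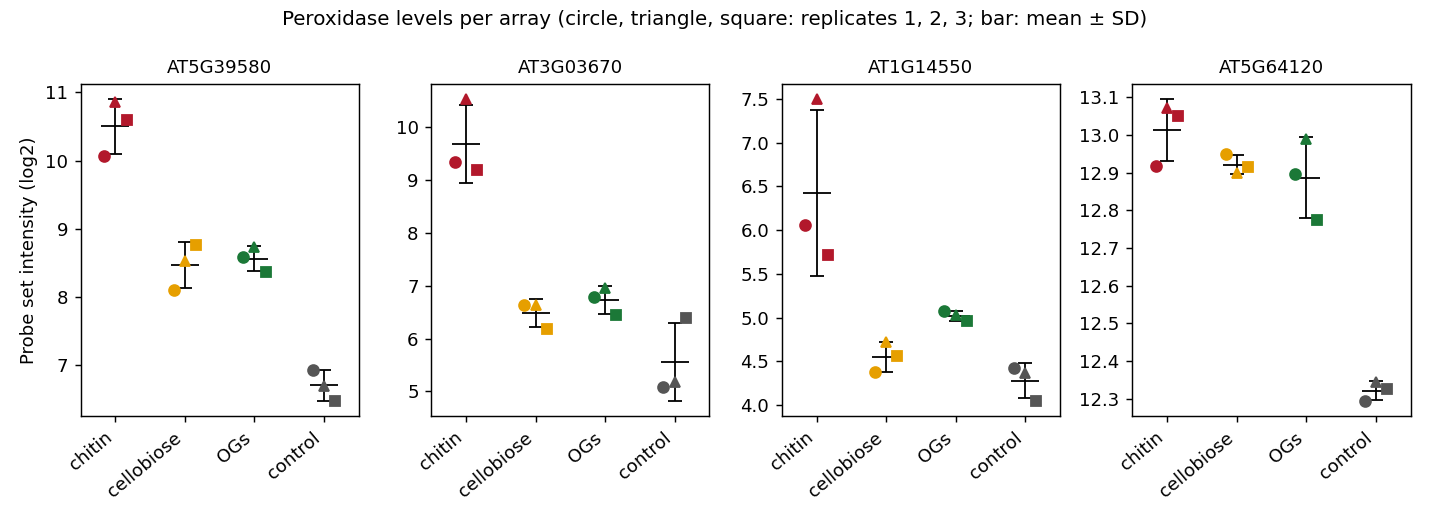
Log2 probe set intensity of the 4 peroxidase genes on each array, by group, with a separate y axis for each gene. Symbols are the arrays of replicates 1, 2 and 3 and bars the mean ± SD (n = 3). Chitin arrays are above all others for AT5G39580, AT3G03670 and AT1G14550, while for AT5G64120 all elicitor arrays sit between 12.77 and 13.07, above the control arrays.

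Within the measured family the order by fitted chitin difference put AT3G03670 first, AT5G39580 second, AT1G14550 at rank 4 and AT5G64120 at rank 15 of 55. Among all 13286 genes AT3G03670 and AT5G39580 held ranks 6 and 9. The place of AT1G14550 depends on a control level near background: with groups under log2 5 raised to 5, its difference is 1.43 on the log2 scale and its rank 8. AT5G64120 then had rank 14, with 10 family genes outside the 4 above it. The name "raised most by chitin" thus holds for AT3G03670 and AT5G39580 and does not hold for AT5G64120. AT1G14550 had rank 4 as fitted and rank 8 with the floor. These ranks are not bounds, as neither takes in the sampling error of the differences. Rank 3 was AT4G36430 (log2 difference 2.40), and ranks 5 to 10 were AT4G08780 (2.13), AT5G06730 (1.84), AT5G64110 (1.73), AT5G19890 (1.57), AT5G66390 (1.27) and AT4G08770 (1.11). AT1G68850 (1.00), AT1G49570 (0.97) and AT5G64100 (0.71) stood between those and AT5G64120 (0.69), and AT5G14130 (0.68), AT4G33420 (0.55) and AT2G22420 (0.36) followed it. AT5G19880 averaged 5.08 after chitin and 4.02 in control roots, so its fitted 1.07 (rank 11) falls to 0.08 with the floor. Whether it stands above AT5G64120 is not settled.

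The median chitin difference over the 55 family genes was 0.06, against -0.02 over all genes, so the family as a whole was not shifted by an amount like that of the 4 genes. Leaving out the 4 genes, 11 of the other 51 were called higher after chitin and 3 lower at an adjusted p under 0.05 (limma), where 4.55 percent of all genes were called higher and 4.80 percent lower. For all 4 genes every chitin array lay above every control array, as for 10.7 percent of all probe sets. For the leading 3 every chitin array also lay above every cellobiose array and every OGs array, as for 10.7 percent and 8.83 percent of all probe sets. The 4 genes were chosen from the chitin values, so nothing is read from these overlaps.

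**Figure D2:**
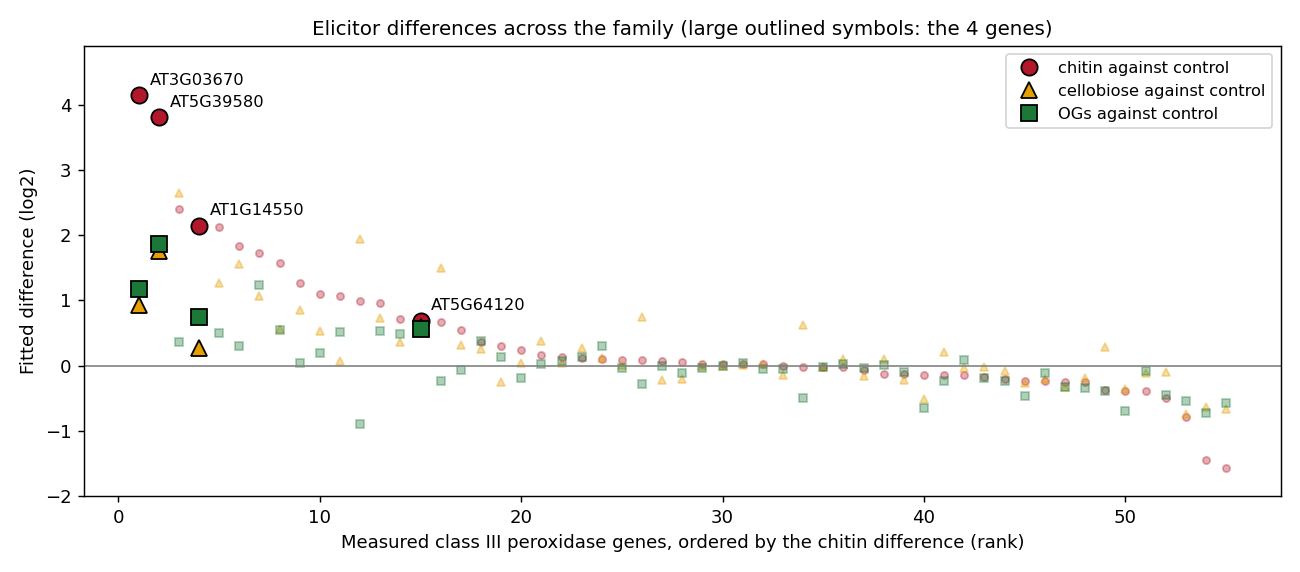
Fitted log2 difference from the control after chitin (circles), cellobiose (triangles) and OGs (squares) for the 55 measured class III peroxidase genes, ordered by the fitted chitin difference, with dim probe sets as fitted. Large outlined symbols are the 4 genes. AT3G03670 (4.14) and AT5G39580 (3.80) lead the chitin order, and AT5G64120 (0.69) stands at rank 15 with its 3 symbols together.

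Roots given cellobiose, a product of cellulose breakdown, were set against control roots to ask whether these genes change as well. AT5G39580 rose 3.40-fold after cellobiose (1.76 ± 0.20 SE on the log2 scale, limma adjusted p = 0.00108), in 3 of 3 replicate-number pairs. AT5G64120 rose 1.52-fold (0.60 ± 0.08 SE, limma adjusted p = 0.00280), also in 3 of 3 pairs. So 2 of the 4 genes were called higher, where 1.37 percent of all genes were, and the same 2 had cellobiose and control arrays that did not overlap, as did 12.3 percent of all probe sets in that direction. The control arrays are shared with the contrast that chose the genes, so these results are not independent of the choice.

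AT3G03670 was not called after cellobiose (log2 difference 0.94, 95 percent interval 0.11 to 1.77, limma adjusted p = 0.240). Its differences in the replicate-number pairs were 1.56, 1.47 and -0.22, the last being the pair of control replicate 3. Without that array the difference was 1.54 ± 0.23 (SE) with a limma adjusted p of 0.00854. AT1G14550 was not called either (0.27, 95 percent interval -0.36 to 0.90, limma adjusted p = 0.700), and both its groups lay under log2 5.

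The same question was put to pectin fragments by setting OGs roots against control roots. AT5G39580 rose 3.63-fold after OGs (1.86 ± 0.20 SE on the log2 scale, limma adjusted p = 0.00108) and AT5G64120 1.48-fold (0.57 ± 0.08 SE, limma adjusted p = 0.00445), each in 3 of 3 pairs. Here too 2 of the 4 were called higher, where 1.39 percent of all genes were. As for cellobiose, the control arrays are shared with the contrast that chose the genes, so these results are not independent of the choice. For all 4 genes every OGs array lay above every control array, as for 9.24 percent of all probe sets, although for AT3G03670 the gap was 0.04. OGs replicate 3 was the lowest OGs array for 4 of 4 genes. The share over all probe sets was not counted here either, so nothing is read from this. The 3′ minus 5′ difference of the actin control probe sets was 2.11 on OGs replicate 3, against 1.55 and 1.46 on the other OGs arrays. Without OGs replicate 3, AT5G39580 stood at 1.99 and AT5G64120 at 0.63 (log2), both still called.

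AT3G03670 had a log2 difference of 1.18 after OGs (95 percent interval 0.35 to 2.01, limma adjusted p = 0.137). Without control replicate 3 it was 1.79 ± 0.23 (SE, limma adjusted p = 0.00494). AT1G14550 had a difference of 0.74 (95 percent interval 0.11 to 1.37, limma adjusted p = 0.218). It passed the threshold without chitin replicate 2, whose spread enters the common error (0.74 ± 0.11 SE, limma adjusted p = 0.00849), and when OGs and control arrays alone were fitted (adjusted p = 0.0278). With the control arrays raised to log2 5 this difference would be near 0.02, so its size rests on values near background. Control replicate 3 was also the array with the highest summed intensity of the shoot markers (2516), whose part in the level of AT3G03670 was not tested.

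**Figure D3:**
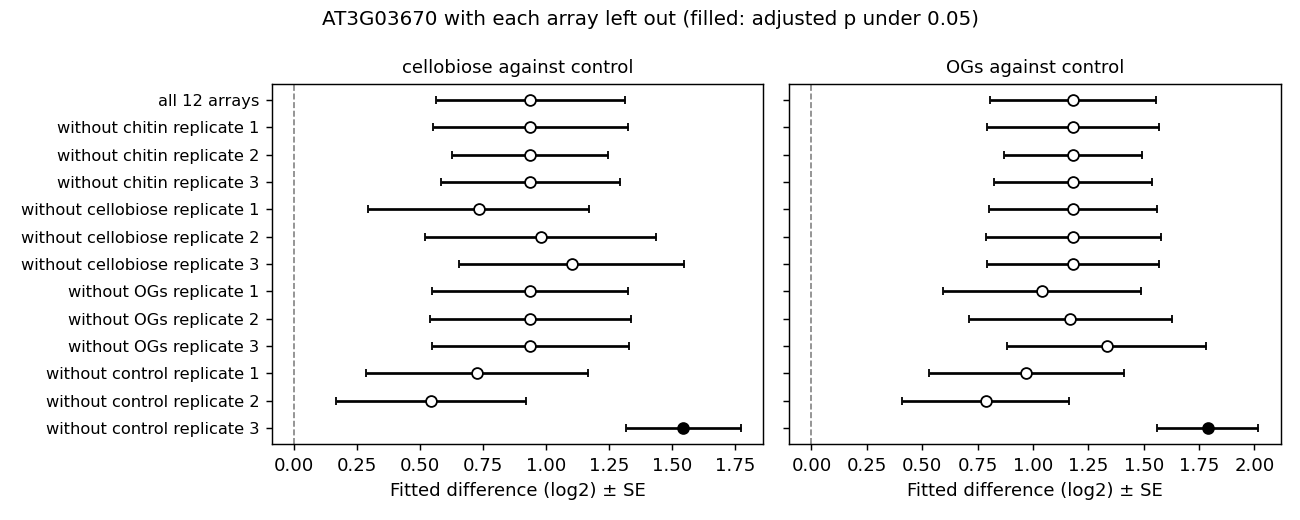
Fitted log2 difference of AT3G03670 from the control after cellobiose (left) and OGs (right), with all 12 arrays and with each array left out in turn; bars are the SE and filled points passed an adjusted p of 0.05. Only without control replicate 3 are the points filled, at 1.54 and 1.79.

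Cellobiose and OGs were then compared with each other. The differences themselves use none of the chitin or control arrays that chose the genes, but the SEs, intervals and adjusted p-values of the 12-array fit also take in the spread of those arrays. The 4 genes had differences of cellobiose from OGs of -0.10 for AT5G39580, -0.24 for AT3G03670, -0.47 for AT1G14550 and 0.03 for AT5G64120 on the log2 scale. None was called, with limma adjusted p-values of 0.896, 0.852, 0.566 and 0.909, while 0.647 percent of all genes were called higher and 0.474 percent lower. The intervals set how large a difference the data allow: -0.54 to 0.34 for AT5G39580, -1.08 to 0.59 for AT3G03670, -1.10 to 0.16 for AT1G14550 and -0.14 to 0.21 for AT5G64120, at the 95 percent level. With cellobiose and OGs arrays alone the intervals were -0.48 to 0.28 for AT5G39580, -0.45 to -0.04 for AT3G03670, -0.71 to -0.23 for AT1G14550 and -0.18 to 0.24 for AT5G64120. This fit kept the replicate number as a block, so these intervals rest on pairing by number. The data do not show that the numbers pair the samples, and cellobiose and OGs arrays of AT3G03670 overlapped. AT3G03670 was lower after cellobiose in 3 of 3 replicate-number pairs (-0.15, -0.32 and -0.26), and so was AT1G14550 (-0.70, -0.31 and -0.40), but neither passed over all probe sets in that fit (limma adjusted p = 0.305 and 0.0941). The cellobiose level of AT1G14550 was under log2 5, and with it raised to 5 the difference would be near -0.02. All cellobiose arrays of AT1G14550 lay below all its OGs arrays, as for 8.63 percent of all probe sets.

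Among the other 51 family genes, 6 were called higher after cellobiose than after OGs and 0 lower. They included AT1G68850 (log2 difference 2.83 ± 0.19 SE), AT4G36430 (2.28 ± 0.33 SE), AT5G14130 (1.73 ± 0.16 SE) and AT5G66390 (0.82 ± 0.07 SE). AT4G36430 stood at 2.40 after chitin, 2.65 after cellobiose and 0.37 after OGs against the control, a profile in which cellobiose is as high as chitin, whereas AT5G39580, the next gene above it in the chitin order, had 3.80, 1.76 and 1.86. In the order of the fitted cellobiose difference from OGs, AT5G64120 held rank 29, AT5G39580 rank 41, AT3G03670 rank 52 and AT1G14550 rank 55 of 55. With groups under log2 5 raised to 5, these genes held ranks 25, 46, 54 and 42, with AT1G14550 at -0.02. None of the 4 differences was called, so the ranks are a description only.

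**Figure D4:**
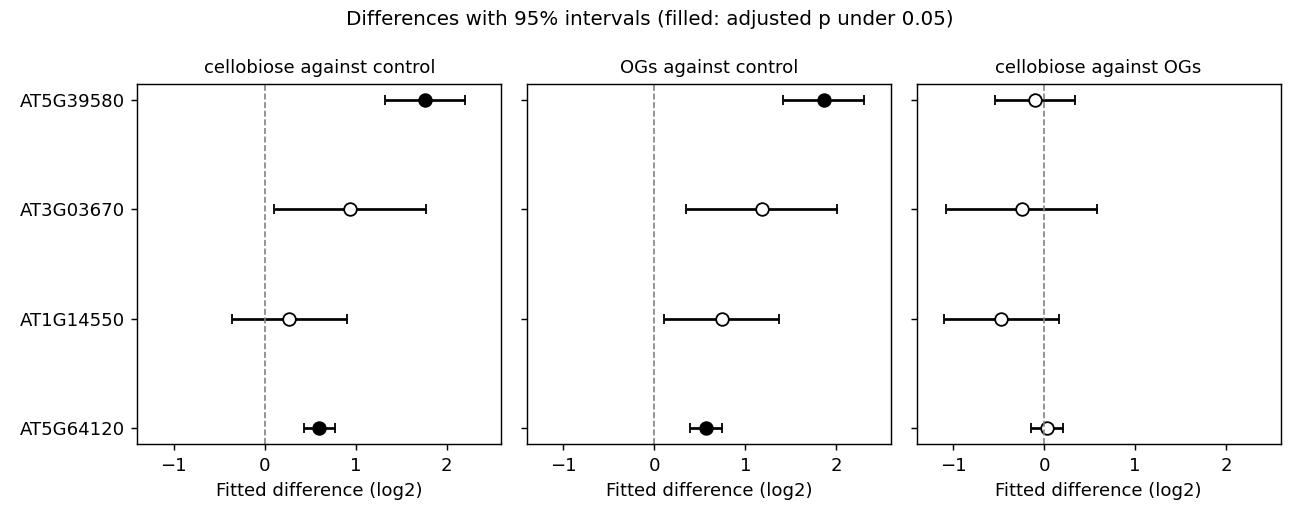
Fitted log2 differences of the 4 genes with 95 percent intervals, for cellobiose against control, OGs against control and cellobiose against OGs; filled points passed an adjusted p of 0.05. AT5G39580 and AT5G64120 are filled against the control after both elicitors, and none is filled between cellobiose and OGs.

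AT5G64120 lies beside AT5G64110 and AT5G64100 in the TAIR10.1 assembly, 3 peroxidase genes in a row on chromosome 5, all measured by probe sets of their own. AT5G64110 had 9.50, 9.71 and 9.64 on chitin arrays, 8.93, 8.80 and 9.12 on cellobiose arrays, 9.29, 9.09 and 8.95 on OGs arrays, and 7.62, 8.00 and 8.01 on control arrays. All its elicitor arrays were above its control arrays and, unlike AT5G64120, its chitin arrays were above those of the other elicitors. Chitin arrays lay above all cellobiose arrays for 10.7 percent of all probe sets, and above all OGs arrays for 8.83 percent. For AT5G64110 chitin was called higher than cellobiose (log2 difference 0.66, limma adjusted p = 0.0146) but not than OGs (0.50, limma adjusted p = 0.0706). AT5G64110 rose 2.10-fold after cellobiose (limma adjusted p = 0.00220) and 2.35-fold after OGs (limma adjusted p = 0.00108).

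AT5G64100 averaged 13.40 ± 0.11 after chitin, 13.05 ± 0.13 after cellobiose, 13.17 ± 0.05 after OGs and 12.69 ± 0.16 in control roots (SD, n = 3 each). It rose 1.40-fold after OGs (limma adjusted p = 0.0297) and had a 1.28-fold difference after cellobiose that did not pass (limma adjusted p = 0.0906). Chitin was not called different from cellobiose (log2 difference 0.36, limma adjusted p = 0.0609) or from OGs (0.23, limma adjusted p = 0.259) for AT5G64100. For each of the 3 genes all elicitor arrays were above all control arrays. Taken singly, that held for 10.7 percent of all probe sets after chitin, 12.3 percent after cellobiose and 9.24 percent after OGs. How far related transcripts cross-hybridise among these probe sets was not tested. PER4, beside AT1G14550, was not analysed here.

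**Figure D5:**
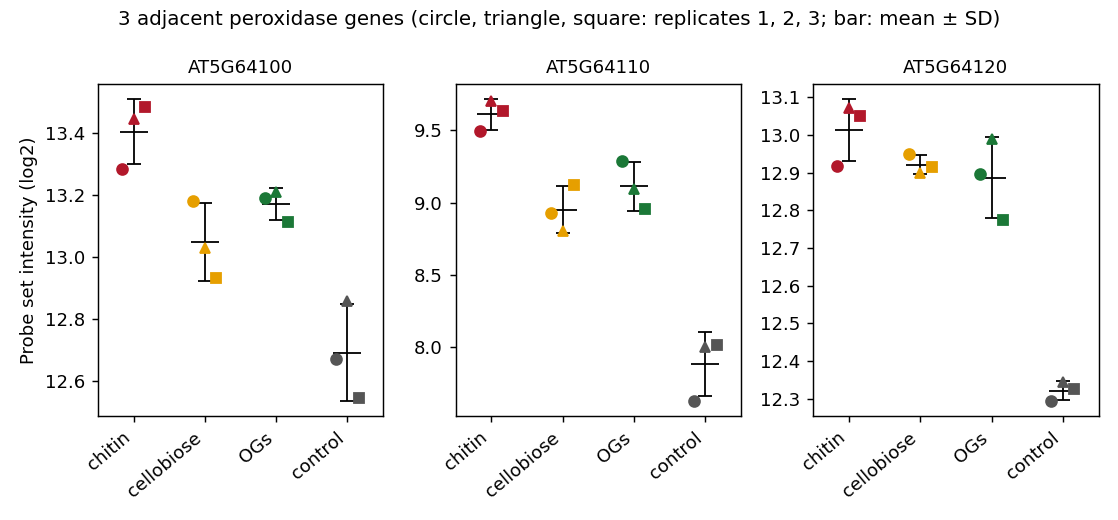
Log2 probe set intensity of the adjacent genes AT5G64100, AT5G64110 and AT5G64120 on each array, by group, with a separate y axis for each gene. Symbols are replicates 1, 2 and 3 and bars the mean ± SD (n = 3). All elicitor arrays lie above the control arrays for each gene. Chitin arrays lie above those of the other elicitors for AT5G64110 and AT5G64100, and overlap them for AT5G64120. For AT5G64100 the gap between chitin and OGs arrays is 0.07.

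Across the 12 arrays, which share the same 4 groups, the levels of AT5G39580, AT3G03670 and AT1G14550 correlated with each other at Pearson r of 0.87 to 0.92. AT5G64120 correlated with AT5G39580 at 0.87, with AT3G03670 at 0.69 and with AT1G14550 at 0.61. These values describe likeness over n = 12 arrays and largely restate the group differences. Each gene was also set against 8129 others whose highest group mean reached log2 5.

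The genes most like AT5G39580 were CHI (r = 0.981), a chitinase gene, AT2G15220 (0.977) and AT5G01750 (0.977). Those most like AT3G03670 were AT1G26380 (0.980), a berberine bridge enzyme-like oxidase gene, AT5G59680 (0.976), a leucine-rich repeat receptor kinase gene, and AT1G10990 (0.975). AT1G26380 averaged 4.00 in control roots, under log2 5, so part of its match rests on values near background. AT1G14550 was followed by AT1G24140 (0.981), a matrix metalloproteinase gene, AT5G48175 (0.981) and AT3G55470 (0.979). AT1G24140 averaged 4.33 after cellobiose, 4.48 after OGs and 4.12 in control roots, all under log2 5. AT1G14550 was near or under log2 5 in those groups too, so outside chitin this match rests on values near background. AT5G64120 had fewer close matches, with 2 genes over r = 0.95 against 15 to 30 for the others. Its closest were AT5G39590 (0.968), which is the gene next to AT5G39580 in TAIR10.1, AT3G47800 (0.962) and AT2G42360 (0.946).

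Peroxidases use hydrogen peroxide, to which NADPH oxidases contribute, and monolignols are among their substrates. Of 24 listed genes of hydrogen peroxide production and removal 5 were measured. Of these, AT4G25090 and AT4G11230, which encode NADPH oxidases of the RBOH family, rose after chitin by 0.79 ± 0.10 and 1.50 ± 0.14 (log2, SE, limma adjusted p = 0.000531 and 6.16e-05), and 0 fell, where 4.55 percent of all genes were called higher and 4.80 percent lower. With 5 genes measured, this count describes them only. AT4G25090 also rose after cellobiose (0.62, adjusted p = 0.0113) and OGs (0.48, adjusted p = 0.0328). The list's median was 0.43 after chitin, 0.03 after cellobiose and 0.00 after OGs, against -0.02, 0.00 and -0.01 over all genes.

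Of 18 listed monolignol synthesis genes 3 were measured. Of these, 2 were called higher after chitin and 1 after OGs, where 4.55 and 1.39 percent of all genes were. The remaining gene, HCT, was not called after chitin (log2 difference 0.07, limma adjusted p = 0.704). The median of the 3 as fitted was 1.24 after chitin, 0.46 after cellobiose and 0.21 after OGs, each the value of CCR2. Medians over all genes were -0.02, 0.00 and -0.01. With 3 genes measured, these values describe them only. CCOAMT, a caffeoyl-CoA O-methyltransferase gene, averaged 6.92 after chitin, 5.16 after cellobiose, 5.77 after OGs and 4.26, under log2 5, in control roots. As fitted, CCOAMT was called higher after chitin (log2 difference 2.66, limma adjusted p = 2.84e-05) and after OGs (1.52, limma adjusted p = 0.00687). It was not called after cellobiose (limma adjusted p = 0.0685). With the control arrays raised to log2 5, its mean was 3.78-fold higher after chitin and 1.71-fold higher after OGs, and these floored values were not tested. CCR2, a cinnamoyl-CoA reductase gene, rose by 1.24 ± 0.22 after chitin (log2, SE, limma adjusted p = 0.00446). Of 13 listed genes of chitin perception and early signalling 2 were measured. The receptor-associated kinase gene BIK1 rose by 0.45 ± 0.09 after chitin (adjusted p = 0.00739), and the kinase gene AT5G18610 had -0.20 (adjusted p = 0.238).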

How the data were processed

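The authors used GCRMA, per the design text of the series, and Affymetrix Expression Console, per the submitters' processing notes; no version is stated there. The deposited values are log2 intensities, normalized between arrays by the authors. Of 22810 probe sets, 64 manufacturer controls were left out and 22746 were tested. Of these, 13513 had 1 gene in the probe annotation, 503 had several and 8730 were not listed; 13436 of the 13513 matched the TAIR10.1 gene table by gene ID. The probe set with the highest mean stood for a gene.

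One linear model of 12 arrays and 4 groups, with the replicate number as a block, was fitted by limma 3.58.1 in R 4.3.3 (lmFit, eBayes). The block follows the sample pairs from which the authors formed ratios, per the design text. The model had 6 residual degrees of freedom. Within a contrast, Benjamini-Hochberg adjustment covered all 22746 probe sets, with a threshold of 0.05. The SEs rest on the spread between the labelled biological replicates, pooled over the 4 groups and moderated over all probe sets by eBayes. Groups averaging under log2 5 were also raised to 5, giving untested values that take in no sampling error. Precision is limited by the number of arrays.

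The 4 genes, the gene lists and the tests were chosen with earlier results of these data known. Genes named beside the 4 were family genes above or just below them in the chitin order, adjacent family genes, the 3 genes of highest correlation and up to 3 called members of each list. The code was tested on simulated data. Alternatives were no block, quantile normalization, median centring, leaving out dim probe sets, an intensity trend, fitting only the groups compared and leaving out each array. All alternatives except the first kept the block.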

Additional observations from a re-analysis of the deposited data

How the results depend on the processing

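Over 216 refitted values of the 4 genes in the contrasts without chitin, 212 kept their side of the threshold, 4 newly passed it and 0 that passed were lost. With each array left out, the chitin difference from the control ranged from 3.66 to 4.05 for AT5G39580, 3.72 to 4.75 for AT3G03670, 1.65 to 2.45 for AT1G14550 and 0.65 to 0.74 for AT5G64120. The calls of AT5G39580 and AT5G64120 after cellobiose and after OGs held under each alternative run, with a highest adjusted p of 0.0287 after cellobiose (AT5G64120 with an array left out) and 0.0485 after OGs (AT5G64120). With each array left out, AT3G03670 ranged from 0.54 to 1.54 after cellobiose and from 0.79 to 1.79 after OGs, and AT1G14550 from 0.58 to 0.96 after OGs; fitting only OGs and control arrays left AT1G14550 at 0.74 with an adjusted p of 0.0278.

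Same-numbered arrays of different groups had deviations that correlated at -0.23 to 0.25 (median 0.06), so the data do not show that the numbers pair the samples. With no replicate block no call of the 4 genes changed, and the adjusted p for AT5G39580 was 0.000573 after cellobiose and 0.000587 after OGs.

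With each array left out, called probe sets numbered 1540 to 2640 for chitin against control (2507 with all arrays), 138 to 583 for cellobiose against control (516), 250 to 714 for OGs against control (603), 153 to 441 for cellobiose against OGs (299), 625 to 1495 for chitin against cellobiose (1239) and 456 to 1142 for chitin against OGs (813). Called family genes numbered 7 to 15 for cellobiose against control (9), 3 to 8 for OGs against control (7) and 5 to 14 for chitin against cellobiose (10). Fitting only the groups compared gave fewer called probe sets for chitin (1088), OGs (303) against control and chitin against OGs (646), and more for cellobiose against control (714), cellobiose against OGs (360) and chitin against cellobiose (1418); the cause was not tested.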
